A study of Mus musculus with 6 samples.

Results

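RIKEN clone genes are genes that the mouse annotation still named after a cDNA clone of the RIKEN full-length cDNA collection. They were followed here in motor neurons grown from mouse embryonic stem cells with and without the mouse Smn gene. A row of the deposited gene table was taken where every symbol in it ended in Rik and where the larger of the 2 genotype values was at least 1 FPKM (a level corrected for transcript length and for the number of fragments mapped in a library). Members were thus chosen by their names and by the FPKM values described below, with no use of the ratio between genotypes. This gave 913 rows among 41945 in the table, or among 20153 rows that reached 1 FPKM in either genotype. A further 1550 Rik rows stayed below the limit, 435 of them at 0 FPKM in both genotypes, and 100 rows that mixed a Rik symbol with another symbol were left out. The 913 rows carried 881 distinct entries, since 22 of these were spread over 54 rows, and 3 rows held 2 Rik symbols.

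The Hb9 control cells (labelled wildtype, and in the study's methods SMN2+/+;mSmn+/+) and the A2 SMA cells (SMN2+/+;mSmn-/-) both carried the human SMN2 transgene, the FVB/N background and eGFP under control of the Hb9 promoter, by which motor neurons were recognised. Each genotype was 1 embryonic stem cell line, so line and genotype cannot be told apart. Embryoid bodies of both lines received 1 µM retinoic acid and 1 µM Smoothened agonist over 5 days, and eGFP-positive cells were sorted, with 3 samples per genotype. The table holds 1 pooled FPKM value per genotype, so no spread between samples and no interval or test for a ratio could be computed, and every ratio here is a description of these pooled values.

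A RIKEN clone name gives the library, plate and well of the cDNA clone and says nothing of function. Such names stand for a mixture of protein-coding genes that had no assigned role when they were cloned and of long noncoding RNAs, some of which lie next to or opposite a gene for a developmental transcription factor. Many have since been renamed as their products were studied. Of the 913 members, 875 matched a RefSeq gene (GRCm38.p6), 370 under the same Rik symbol and 505 as an older name of a gene that now has another symbol. By RefSeq type 622 were protein-coding, 243 were noncoding RNAs, 10 were pseudogenes and 38 had no match. The newer symbol is given in brackets below. For 3 members the newer symbol also had a row of its own in the table, and those 3 are not described under it.

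RefSeq start-site windows were held for 724 of the 913 members. Of the 24 members named by ratio below, 15 had a window. Shown here are the 250 bases before the start of 4 of these genes, so that the sequence can be read beside the levels. The 4 were picked by hand, without a set rule, from either end of the ratio scale. Lhx1os (chr11:84525410-84525659) and 6430503K07Rik (chr2:147187174-147187423) were among the 12 members lowest in A2 SMA of those at 5 FPKM or more in the higher genotype. Plet1 (chr9:50494275-50494524) and 2610528J11Rik (chr4:118527025-118527274) were among the 12 highest of the same set. All 4 are read 5′ to 3′ on the plus strand of GRCm38.p6, and these positions are not on the build of the gene table. Capitals mark matches on either strand, which may overlap, to the octamer ATGCAAAT bound by POU factors, the E-box CAGCTG, the CCAAT box CCAAT, the GC box GGGCGG or the TATA box TATAAA.
Lhx1os: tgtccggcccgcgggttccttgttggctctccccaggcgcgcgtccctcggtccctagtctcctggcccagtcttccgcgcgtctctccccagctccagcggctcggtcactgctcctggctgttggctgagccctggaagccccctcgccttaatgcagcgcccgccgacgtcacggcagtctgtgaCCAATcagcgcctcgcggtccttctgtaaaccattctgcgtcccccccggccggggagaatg
6430503K07Rik: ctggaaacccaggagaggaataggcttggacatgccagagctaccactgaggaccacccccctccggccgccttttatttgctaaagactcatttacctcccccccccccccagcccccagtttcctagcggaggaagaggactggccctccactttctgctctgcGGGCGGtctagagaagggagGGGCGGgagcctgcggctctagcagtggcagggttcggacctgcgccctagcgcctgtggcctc
Plet1: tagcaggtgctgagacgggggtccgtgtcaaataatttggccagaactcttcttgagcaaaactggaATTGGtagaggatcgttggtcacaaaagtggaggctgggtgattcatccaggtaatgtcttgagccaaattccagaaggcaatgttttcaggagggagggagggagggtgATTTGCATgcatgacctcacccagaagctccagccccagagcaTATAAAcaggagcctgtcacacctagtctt
2610528J11Rik: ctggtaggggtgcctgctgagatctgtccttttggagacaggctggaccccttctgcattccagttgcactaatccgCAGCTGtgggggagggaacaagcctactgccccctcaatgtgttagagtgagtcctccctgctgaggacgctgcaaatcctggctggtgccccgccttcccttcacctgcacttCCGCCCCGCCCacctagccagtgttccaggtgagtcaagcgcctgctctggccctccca
The Lhx1os window held 24 CpG dinucleotides and 1 CCAAT box. The 6430503K07Rik window held 10 CpG and 2 GC boxes. The Plet1 window had 3 CpG, with 1 octamer (read ATTTGCAT on this strand), 1 CCAAT box and 1 TATA box. The 2610528J11Rik window had 6 CpG, 1 E-box and 2 GC boxes that share a base.

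CpG dinucleotides were fewest in the windows of members that were higher in A2 SMA. The median was 15 CpG per 250 bases over 256 windows of members at least 2-fold lower in A2 SMA, 16 over 518 windows of members within 2-fold, and 5 over 68 windows of members at least 2-fold higher. It was 6 over all 32851 windows and 15 over the 844 windows of members. A GC box was found in 49.2% of the windows of the lower members, in 55.6% of those within 2-fold and in 36.8% of those of the higher members, against 32.7% of all windows. The octamer was found in 0 of 256, 6 of 518 and 3 of 68 windows in the same order, and in 1.60% of all windows. The 3 were those of Plet1, Platr21 and 4833407H14Rik. An E-box was found in 14.1%, 9.46% and 16.2% of these windows and in 13% of all, a CCAAT box in 31.3%, 36.9% and 33.8% and in 33.8% of all, and a TATA box in 5.86%, 5.21% and 8.82% and in 12.4% of all. A gene with several starts has several windows here.

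The targeted gene and the cell type markers frame what follows. Smn1, which encodes the SMN protein of the complex that assembles spliceosomal snRNPs, stood at 137 FPKM in Hb9 control and 5.26 FPKM in A2 SMA. Of 7 motor neuron markers found, 6 were lower in A2 SMA, and their summed level was 216 FPKM in Hb9 control and 52.5 FPKM in A2 SMA; Mnx1, whose promoter drives the sorting reporter, read 41.2 and 44.2 FPKM. All 6 embryonic stem cell markers were higher in A2 SMA, with sums of 210.2 and 1427 FPKM, and all 3 pan-neuronal markers found were lower, with sums of 288 and 19.1 FPKM. The sums of other lists were lower in A2 SMA as well, at 189.9 and 8.17 FPKM for motor neuron progenitors, 55.8 and 27.1 FPKM for fibroblasts, 27.9 and 13.2 FPKM for glia and 80.4 and 33.1 FPKM for endoderm. In these lists 2 of 2 progenitor, 3 of 4 fibroblast, 4 of 4 glia and 3 of 4 endoderm markers were lower. Below 1 FPKM in both genotypes were 2 of the glia markers and 1 of endoderm. The part of this difference in cell type in any ratio below was not tested, and with sorted pools fewer cells of a type and less RNA per cell cannot be told apart. Over all 19837 rows with a ratio the median log2 ratio of A2 SMA over Hb9 control was -0.24.

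RIKEN clone genes were lower in A2 SMA more often than they were higher, as were the rows of the table at large. Their median level was 7.44 FPKM in Hb9 control and 4.88 FPKM in A2 SMA, beside 15.2 and 11.1 FPKM over all rows that reached the limit. A ratio could be formed for 911 members, and its median was -0.42 on the log2 scale, with quartiles of -1.09 and 0.10. In all, 633 members (69.5%) were lower in A2 SMA by any amount, beside 62.5% of all rows. By at least 2-fold, 253 members (27.8%) were lower, beside 22.7% of all rows, and 75 members (8.23%) were higher, beside 9.45%. The remaining 583 members lay within 2-fold. Compared at like level, the shares at least 2-fold lower stood closer together. They were 35.5% of members and 32.7% of all rows between 1 and 5 FPKM, 27.8% and 26.8% between 5 and 20 FPKM, and 16.9% and 14.6% at 20 FPKM or more. At a limit of 4-fold, 9.77% of members and 9.57% of all rows were lower, and with 1 FPKM added to both values the shares at 2-fold were 17.3% and 17.3%. Relative to the median row, the counts were 198 lower (21.7%, beside 17.9%) and 91 higher (9.99%, beside 12.7%). The Gm predicted genes, the other large set of provisional names, had a median of -0.10 over 1327 rows, with 17.5% at least 2-fold lower and 9.87% higher, and rows with an established symbol had a median of -0.31 over 13062 rows, with 22.9% and 6.56%. Since membership required 1 FPKM in the higher genotype, a member with a low level passed through the genotype in which it was higher.

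**Figure D1:**
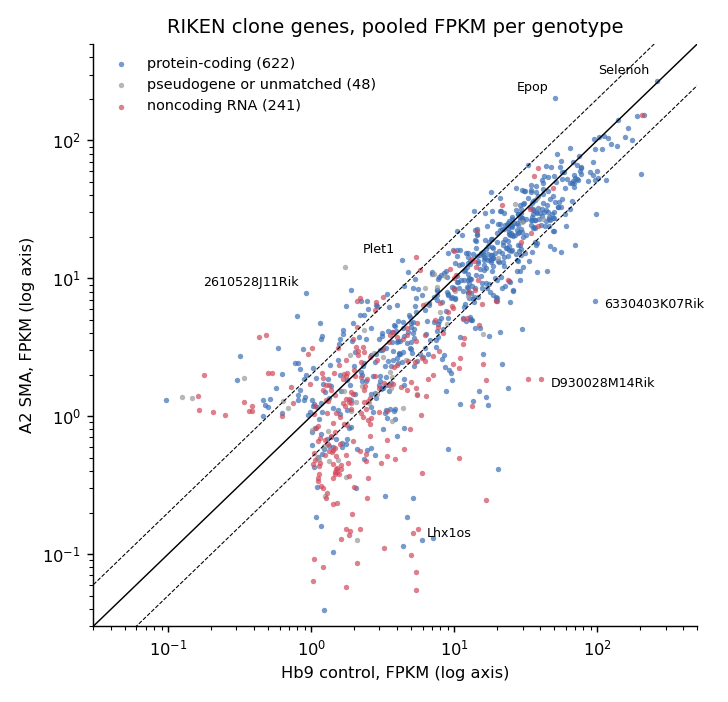
Each point is 1 RIKEN clone gene, with its pooled FPKM in Hb9 control on the horizontal and in A2 SMA on the vertical log axis, coloured by RefSeq gene type; the solid line marks equal levels and the dashed lines 2-fold. The 253 members below the lower dashed line outnumber the 75 above the upper one, and the 2 members listed at 0 FPKM in A2 SMA are not drawn.

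At the edges of the set, the 3 members just inside the limit were 1700006J14Rik at 0.622 FPKM in Hb9 control and 1.01 FPKM in A2 SMA, 1200009I06Rik (Exoc3l4) at 0.462 and 1.01 FPKM, and D830044I16Rik (Cdiptos) at 0.95 and 1.01 FPKM. Just outside it were 2810471M01Rik at 0.994 and 0.0278 FPKM, 4930447M23Rik at 0.991 and 0 FPKM, and 1700109K24Rik at 0.984 and 0.467 FPKM. Inside the limit 2 members were listed at 0 FPKM in A2 SMA, 2610316D01Rik with 3.32 FPKM in Hb9 control and 9330151L19Rik with 2.36 FPKM, and no fold was formed for them. The authors' software marked the estimate as failed for 78 of the 913 members, 9330151L19Rik among them.

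The 6 most abundant members all lay within 2-fold between genotypes. 2700094K13Rik (Selenoh, selenoprotein H) led with 259 FPKM in Hb9 control and 267 FPKM in A2 SMA, a row with a failed estimate. 2010107E04Rik (Atp5mpl, a small subunit of the mitochondrial ATP synthase) read 212 and 152 FPKM, the noncoding 2410006H16Rik 207 and 153 FPKM, and 1500010J02Rik (Ctc1, of the complex that maintains telomere ends) 188 and 150.4 FPKM. 2610507B11Rik read 165 and 123 FPKM and 0610031J06Rik (Glmp, a lysosomal membrane glycoprotein) 139 and 139.7 FPKM. The log2 ratios of these 6 ran from -0.48 to 0.04. At 100 FPKM or more in the higher genotype there were 19 members, and at 5 FPKM or more 539. Among the abundant members with larger differences, chosen after their values were seen, 6330403K07Rik stood at 96.3 FPKM in Hb9 control and 6.88 FPKM in A2 SMA, and 9530068E07Rik, with a failed estimate, at 203 and 56.7 FPKM.

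The 12 members lowest in A2 SMA among those at 5 FPKM or more were 8 noncoding RNAs and 4 protein-coding genes. D930007P13Rik, a noncoding RNA at chr15:102942751-102977259 (all positions of loci from here on are on NCBI m37), read 5.37 FPKM in Hb9 control and 0.0545 FPKM in A2 SMA, a log2 ratio of -6.62. 6430503K07Rik (chr2:147003282-147157417) read 5.36 and 0.0734 FPKM, and 1500016L03Rik (Lhx1os, chr11:84331479-84349333) 5.59 and 0.151 FPKM. The upstream windows of 6430503K07Rik and Lhx1os are those printed above. The antisense RNAs of Hox genes, which lie within the clusters that set position along the body axis, were 5730446D14Rik (Hoxaas2) at 16.6 and 0.247 FPKM, 6720416L17Rik (Haglr) at 10.8 and 0.495 FPKM, and 0610040B09Rik (Hoxb5os) at 32.6 and 1.85 FPKM. The noncoding D930028M14Rik was the most abundant of the 12 in Hb9 control, with 40.6 FPKM against 1.84 FPKM in A2 SMA. A830036E02Rik, also noncoding, read 5.11 and 0.142 FPKM.

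Of the 4 protein-coding genes at that end, 6330527O06Rik (Lamp5, a membrane protein of neuronal vesicles) read 7.10 FPKM in Hb9 control and 0.130 FPKM in A2 SMA. 1700106J16Rik (Ccdc182) read 20.1 and 0.412 FPKM, C130060K24Rik (Qrfprl, named for its likeness to a neuropeptide receptor) 5.96 and 0.126 FPKM, and 1700112E06Rik (Lrmda) 5.18 and 0.253 FPKM. Across the 12, levels in A2 SMA were 17.6-fold to 98.5-fold lower than in Hb9 control.

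The 12 members highest in A2 SMA differed by less, from 2.63-fold to 8.50-fold, and 8 of them were protein-coding. 2610528J11Rik, a protein-coding gene at chr4:118199604-118202833, read 0.915 FPKM in Hb9 control and 7.78 FPKM in A2 SMA. E130012A19Rik (Epop, a partner of Polycomb repressive complex 2 and elongin that is expressed in embryonic stem cells) was the most abundant of the 12, with 50.9 and 203 FPKM. 1600029D21Rik (Plet1, a surface protein of placental and other early progenitors, chr9:50302630-50313744) read 4.32 and 13.5 FPKM, and 1810019J16Rik (Kdf1, an epidermal differentiation factor) 2.22 and 6.89 FPKM. 2410019O14Rik (Platr27), a noncoding RNA, read 2.20 and 7.14 FPKM.

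The others at that end were known by little more than a name. 4930566F21Rik, with no RefSeq match, read 1.72 FPKM in Hb9 control and 12.2 FPKM in A2 SMA, 1700019D03Rik 0.795 and 5.37 FPKM, 3830417A13Rik 1.90 and 8.2 FPKM, and 1700061G19Rik (Acsbg3, of a family of acyl-CoA synthetases) 1.74 and 6.29 FPKM. The noncoding 2610037D02Rik read 2.10 and 6.79 FPKM, the noncoding 4930461G14Rik 5.42 and 14.2 FPKM, and E130309D14Rik (Ccdc92b), with a failed estimate, 2.45 and 6.83 FPKM.

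**Figure D2:**
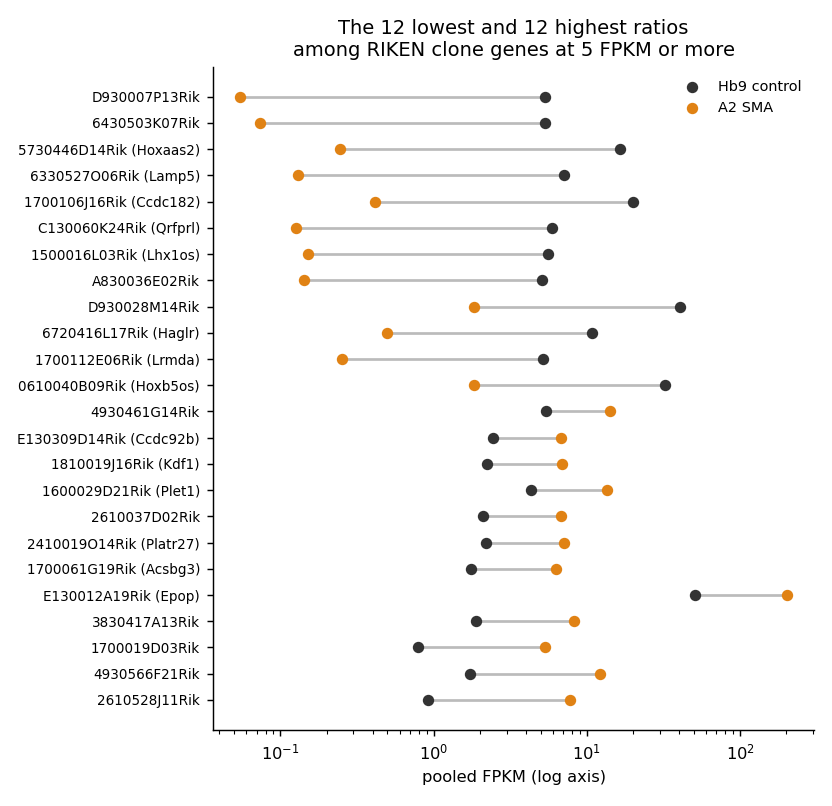
Pooled FPKM on a log axis for the 12 lowest and 12 highest ratios among RIKEN clone genes at 5 FPKM or more in the higher genotype, with black points for Hb9 control and orange points for A2 SMA. The distances in the upper 12 rows span 17.6-fold to 98.5-fold and those in the lower 12 rows 2.63-fold to 8.50-fold.

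Noncoding members were lower in A2 SMA by more than protein-coding members. The 241 noncoding members with a ratio had a median log2 ratio of -0.87, and 110 of them (45.6%) were at least 2-fold lower and 25 (10.4%) at least 2-fold higher. The 622 protein-coding members had a median of -0.34, with 129 (20.7%) lower and 45 (7.23%) higher. The 10 pseudogenes had a median of -0.31 and the 38 unmatched members one of -0.72. Noncoding rows with other names lay close to the noncoding members. The 125 Gm noncoding rows had a median of -0.69 with 40.8% at least 2-fold lower, and 31 noncoding rows with an established symbol had -0.76 and 38.7%. Protein-coding rows with an established symbol had a median of -0.31 and 22.8%, beside the -0.34 and 20.7% of the coding members.

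The types also differed in level. Noncoding members were less abundant, with a median of 2.31 FPKM in Hb9 control beside 13.4 FPKM for coding members. Between 1 and 5 FPKM, 44.6% of 168 noncoding and 26.0% of 173 coding members were at least 2-fold lower in A2 SMA. Between 5 and 20 FPKM the shares were 53.3% of 60 and 20.9% of 201. At 20 FPKM or more they were 23.1% of 13 and 16.9% of 248. Of the members, 454 shared their locus in the table with another row, which means that the software treated overlapping genes together. The libraries do not mark strand, so reads of a noncoding member and of a gene on the opposite strand cannot be told apart. The 95 noncoding members alone at their locus had a median of -0.75, with 40 (42.1%) at least 2-fold lower and 13 (13.7%) higher, beside 21.5% and 11.1% of all rows alone at their locus.

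**Figure D3:**
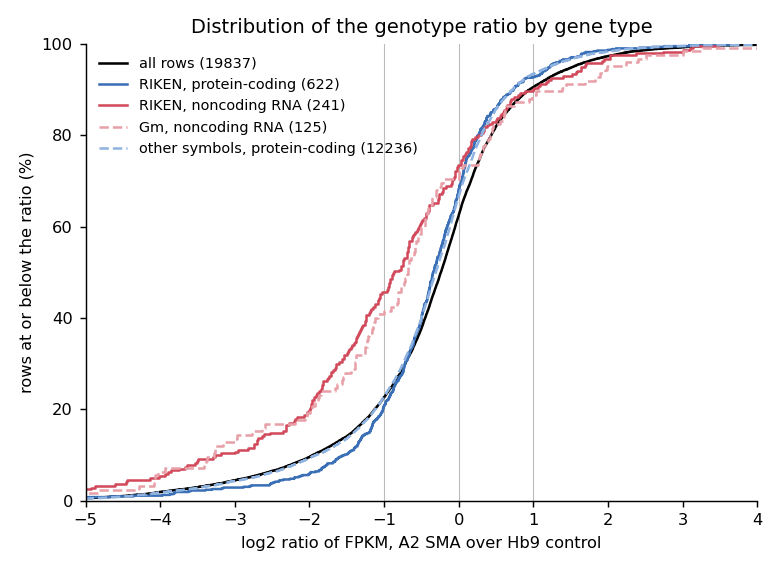
Cumulative share of rows, in percent, at or below each log2 ratio of A2 SMA over Hb9 control, for all rows (black), coding (blue) and noncoding (red) RIKEN clone genes, noncoding Gm genes (pink dashes) and coding genes with other symbols (light blue dashes). At a log2 ratio of -1 the red curve has reached 45.6% and the blue one 20.7%, and coding RIKEN clone genes run beside coding genes of other names.

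By the role that the newer symbol gives them, most of the members with neuronal roles were lower in A2 SMA (12 of 14), and most of those of the germ line (7 of 9) and of the Platr transcripts of pluripotent cells (5 of 6) were higher. These role lists were drawn up by name from all renamed members after values had been seen, so their counts and medians are descriptions, to be read beside the 62.5% of all rows that were lower in A2 SMA, the 22.7% at least 2-fold lower and the 9.45% at least 2-fold higher. Of 14 members with neuronal roles, 12 were lower in A2 SMA, 10 of them by at least 2-fold, and the median log2 ratio was -2.21. A730017C20Rik (Minar2, an integral membrane protein) read 23.6 FPKM in Hb9 control and 1.61 FPKM in A2 SMA. 2610109H07Rik (Draxin, a secreted repellent of growing axons) read 16.7 and 1.38 FPKM, and A930038C07Rik (Ndnf, a secreted neurotrophic factor) 15.0 and 1.51 FPKM. 3110035E14Rik (Vxn, which promotes neurogenesis) read 4.39 and 0.113 FPKM, and 9430031J16Rik (Nyap2, an adaptor of neuronal PI3-kinase signalling) 4.69 and 0.185 FPKM.

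Other neuronal members did not share that difference. C530028O21Rik (Pianp, a neural membrane protein) was 1.69-fold higher in A2 SMA, at 18.2 FPKM in Hb9 control and 30.8 FPKM in A2 SMA. 4930506M07Rik (Shtn1, shootin, of the growth cone) read 4.94 and 5.24 FPKM. 6030419C18Rik (Insyn1, of inhibitory synapses) read 16.3 and 14.1 FPKM.

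Among renamed noncoding members, all 4 Hox antisense RNAs were at least 2-fold lower in A2 SMA, with 64.9 FPKM in sum in Hb9 control and 3.39 FPKM in A2 SMA. The fourth, 2700086A05Rik (Hoxaas3), read 4.92 and 0.805 FPKM. Both microRNA host transcripts were lower, 2810055G20Rik (Mir99ahg) at 2.20 and 0.152 FPKM and 2610203C20Rik (Mir100hg) at 4.43 and 0.573 FPKM. The X-linked long noncoding RNAs Firre, Ftx and Kantr lay within 2-fold in all 4 of their rows, with 6720401G13Rik (Firre, which binds chromatin at several chromosomes) at 29.3 and 18.4 FPKM in its more abundant row.

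Members named Platr, for pluripotency-associated transcript, and members of the germ line list were the groups with a median above 0. Of 6 Platr members 5 were higher in A2 SMA, 3 of them by at least 2-fold, with a median of 0.88. C330046G13Rik (Platr7) read 0.429 FPKM in Hb9 control and 3.78 FPKM in A2 SMA, 4930500J02Rik (Platr14) 36.4 and 55.4 FPKM, and 5133400J02Rik (Platr20), the 1 that was lower, 8.01 and 6.63 FPKM. Of 9 members of the germ line 7 were higher, 6 by at least 2-fold, with a median of 1.13. 2410076I21Rik (Rec114, needed for meiotic DNA breaks) read 21.0 and 38.4 FPKM, 1700019N12Rik (Catsperz, of the sperm calcium channel) 4.76 and 11.1 FPKM, and 4933406J08Rik (Terb2, which ties telomeres to the nuclear envelope in meiosis) 1.66 and 3.92 FPKM. These directions are those of the 6 stem cell markers, and their link was not tested.

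**Figure D4:**
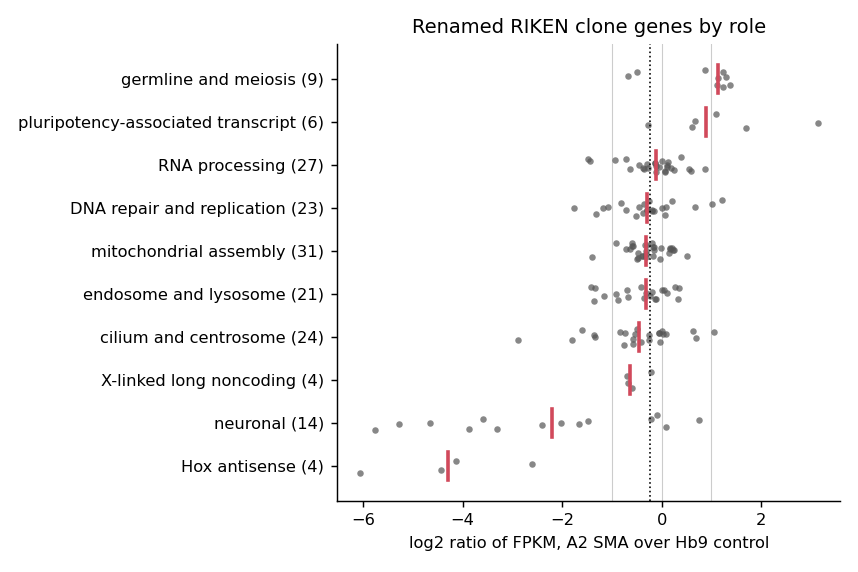
Log2 ratio of A2 SMA over Hb9 control for renamed RIKEN clone genes by role, for lists of 4 or more rows, with 1 point per row of the table, the median of each list as a red bar, the median of all rows as a dotted line and the number of rows in brackets. Of the lists drawn, Hox antisense RNAs and neuronal members lie furthest to the left, with medians of -4.29 and -2.21, and the germ line and Platr members to the right, with 1.13 and 0.88.

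The renamed members with housekeeping roles stayed near the median of all rows. Of 31 rows for mitochondrial assembly and maintenance factors 30 lay within 2-fold, with a median of -0.30. 2310016M24Rik (Cox14, of cytochrome c oxidase assembly) read 88.6 FPKM in Hb9 control and 59.0 FPKM in A2 SMA, and 2900010M23Rik (Uqcc2, of complex III assembly) 54.5 and 64.5 FPKM. Of 21 endosome and lysosome members 17 lay within 2-fold and 4 were at least 2-fold lower, with a median of -0.31. Lower ones were C630004H02Rik (Hid1, of dense core vesicle sorting) at 19.5 and 7.25 FPKM and 1700021K19Rik (Rubcn, a regulator of autophagy) at 24.1 and 9.55 FPKM. 3110043O21Rik (C9orf72, the gene mutated by repeat expansion in familial motor neuron disease) read 27.8 and 17.5 FPKM, with a failed estimate.

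Of 24 members of cilia and centrosomes 5 (20.8%) were at least 2-fold lower and 1 (4.17%) higher in A2 SMA, near or below the shares of all rows, with a median of -0.46. 1810043G02Rik (Cfap410) read 22.5 FPKM in Hb9 control and 8.82 FPKM in A2 SMA. Of 23 members for DNA repair and replication 4 (17.4%) were lower and 2 (8.70%) higher, below the shares of all rows, with a median of -0.29. 2810417H13Rik (Pclaf, a partner of the replication clamp PCNA) read 33.2 and 13.3 FPKM, 5730590G19Rik (Ticrr, which acts in the firing of replication origins) 18.2 and 42.5 FPKM, and 8430410A17Rik (Hmces, which shields abasic sites in DNA) 32.7 and 66.3 FPKM.

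RNA processing members are of interest beside Smn1 because SMN serves snRNP assembly. Of their 27 rows 25 lay within 2-fold, 2 were at least 2-fold lower and 0 higher, with a median of -0.11. 0610011L14Rik (Aar2, which acts in U5 snRNP maturation) read 23.9 FPKM in Hb9 control and 25 FPKM in A2 SMA. 0610009D07Rik (Sf3b6, a subunit of the U2 particle) read 71.7 and 66.3 FPKM. 2610101N10Rik (U2surp, a U2-associated protein) read 52.4 and 79.4 FPKM, and 1110008L16Rik (Prorp, the nuclease of mitochondrial RNase P) 16.4 and 29.9 FPKM. The 2 lower rows were 2610020H08Rik (Rexo5, an RNA exonuclease) at 46.9 and 17.2 FPKM and the least abundant of 3 rows of 1200011M11Rik (Smg8, of nonsense-mediated decay) at 1.75 and 0.626 FPKM.

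The clone prefix gives the library from which a member was first cloned, and among the 4 library groups members from nervous system libraries had the lowest median. The 70 members from libraries of brain regions, embryonic head and spinal cord had a median of -0.80, with 28 (40.0%) at least 2-fold lower in A2 SMA and 3 higher. The 203 members from testis libraries had -0.27, with 58 (28.6%) lower and 28 (13.8%) higher, both above the 22.7% and 9.45% of all rows. The 140 from whole embryo libraries had -0.37, with 32 (22.9%) lower, the level of all rows, and 6 (4.29%) higher. The 26 from the embryonic stem cell library had -0.08, with 1 (3.85%) lower and 4 (15.4%) higher, beside the same 22.7% and 9.45%. The lower one was 2410066E13Rik (Mturn, a regulator of neural differentiation) at 8.24 and 2.60 FPKM. The 472 with other prefixes, more than in the 4 groups together, had -0.47. Those prefixes were not assigned to a tissue, so clones from neural tissue can be among them. Among single prefixes with 10 or more members, named after their values were seen, A930 had the lowest median, -1.15 over 10 members, all of them lower. C330 had the only one above 0, at 0.15 over 16 members, with 0 at least 2-fold lower and 6 (37.5%) higher, beside 22.7% and 9.45% of all rows. Platr7 and Platr21, counted in the Platr list above, carry the C330 prefix. The order of the nervous system and testis groups was the same among coding members, with medians of -0.70 over 46 and -0.18 over 135, and among noncoding members, with -1.15 over 22 and -0.67 over 56. At 5 FPKM or more the nervous system median was -0.60 over 40 members, with 11 (27.5%, beside 18.8% of all rows at that level) at least 2-fold lower and 0 higher. Over the 34 alone at their locus it was -0.49, with 9 (26.5%, beside 21.5% of all rows alone at their locus) lower and 2 higher, and both shares were nearer to those of all rows than the 40.0% was.

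The most abundant member from the nervous system libraries was Ctc1 and that from the stem cell library 2410006H16Rik, both described above, and from testis libraries it was 1700037H04Rik, at 103 FPKM in Hb9 control and 107 FPKM in A2 SMA. The median level of the members cloned from testis was 3.20 FPKM in Hb9 control. The prefix tells where a clone was found and is no measure of where the gene is active.

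By chromosome, members on chromosome 11 were lowest in A2 SMA. Its 92 members had a median of -0.92, and 44 (47.8%) were at least 2-fold lower and 8 (8.70%) higher. All 1500 rows of chromosome 11 also stood below the rest of the table, with a median of -0.49, 30.6% at least 2-fold lower and 5.73% higher. The members lowest on it included Ccdc182, Lhx1os, A830036E02Rik, Hoxb5os and 6330403K07Rik, named above. Among the 45 members of chromosome 11 alone at their locus the median was -0.61, with 21 (46.7%) lower and 5 (11.1%) higher, beside 21.5% and 11.1% of all rows alone at their locus. The other autosomes had medians from -0.61 on chromosome 14 to -0.09 on chromosome 19.

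The 41 members on chromosome X had a median of -0.09, with 9 (22.0%) at least 2-fold lower and 8 (19.5%) higher. All 773 rows of chromosome X had a median of -0.21, with 24.3% lower and 9.06% higher. Of those 8 members, 3 were rows of the same symbol, 4930519F16Rik, at 0.588 and 3.15, 0.304 and 1.83, and 0.319 and 2.72 FPKM in Hb9 control and A2 SMA. With each symbol taken once the counts were 9 and 6. The median turned to 0.11 over the 21 X-linked members alone at their locus and was -0.40 over the 15 at 5 FPKM or more. Of the 21, 2 (9.52%) were at least 2-fold lower and 4 (19.0%) higher, beside 21.5% and 11.1% of all rows alone at their locus. Of the 15, 1 (6.67%) was lower and 1 (6.67%) higher, beside 18.8% and 6.21% of all rows at that level. No member was on chromosome Y or on the mitochondrial genome.

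Locus length, which here is that of the stretch the software treated as a unit and not that of the transcript, was compared last among the features of position. The median locus of the members was 23.8 kb, in a range from 0.171 to 3010 kb. Members at loci under 10 kb had a median log2 ratio of -0.40, those between 10 and 50 kb -0.39, and those of 50 kb or longer -0.50. Over all rows the medians were -0.10, -0.26 and -0.39. Noncoding members stood at -1.06, -0.67 and -0.93 in the same order, and coding members at -0.24, -0.35 and -0.44.

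Each member was also set against the nearest gene with an established symbol among rows at 1 FPKM or more in the higher genotype and above 0 in both. A nearer gene below these limits was passed over, as were rows that mix a Rik or Gm symbol with another. Such a neighbour lay within 100 kb for 839 members, and 531 (63.3%) were on the same side of 0 as their neighbour. Since 70.3% of these members and 66.5% of their neighbours were lower in A2 SMA, a share of 56.7% follows from these margins alone. Relative to the median of all rows the share was 58.6%, beside 50.6% from the margins. By side of 0, the share was 68.9% of 219 noncoding members, beside 61.5% from the margins, and 60.2% of 576 coding members, beside 55.1%. Coding members with an overlapping locus stood at 56.3% of 151, beside 58.7%, and those without at 61.6% of 425, beside 54.1%. The correlation of the log2 ratios, across genes that share libraries and are not independent, was Pearson 0.49 and Spearman 0.43 for the noncoding members and Pearson 0.14 and Spearman 0.15 for the coding members. Noncoding members whose locus did not overlap that of the neighbour gave Pearson 0.40 over 122 genes, and those with an overlap 0.58 over 97. For coding members the values were 0.15 over 425 and 0.07 over 151. Of 102 noncoding members that were at least 2-fold lower in A2 SMA, 90 had a lower neighbour and 44 a neighbour at least 2-fold lower, and over all 219 noncoding members 72.6% of neighbours were lower and 28.3% at least 2-fold lower. Of 24 that were at least 2-fold higher, 9 had a higher neighbour, beside 27.4% over the 219.

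Pairs with both genes at 5 FPKM or more and on the same side of 0 were ranked by the sum of their log2 ratios, to which either gene can contribute most. Of the pairs with the largest sums, those given here were noncoding members beside transcription factor genes, with a single exception. 6430503K07Rik overlaps the locus of Nkx2-2, the ventral neural tube factor, which read 52.5 FPKM in Hb9 control and 1.33 FPKM in A2 SMA, log2 ratios of -6.19 and -5.30. Lhx1os overlaps Lhx1, a LIM homeobox gene of spinal neurons, at 21.2 and 0.696 FPKM, with -5.21 and -4.93. Hoxb5os overlaps Hoxb5, at 69.0 and 4.22 FPKM, with -4.14 and -4.03. Haglr lies 0.148 kb from the row of Hoxd3 and Hoxd4, at 126 and 1.14 FPKM, with -4.44 and -6.79. The exception was D930007P13Rik, 6.47 kb from Smug1, a DNA glycosylase gene at 16.0 and 6.97 FPKM, with -6.62 and -1.19, where the sum rests mainly on the member.

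**Figure D5:**
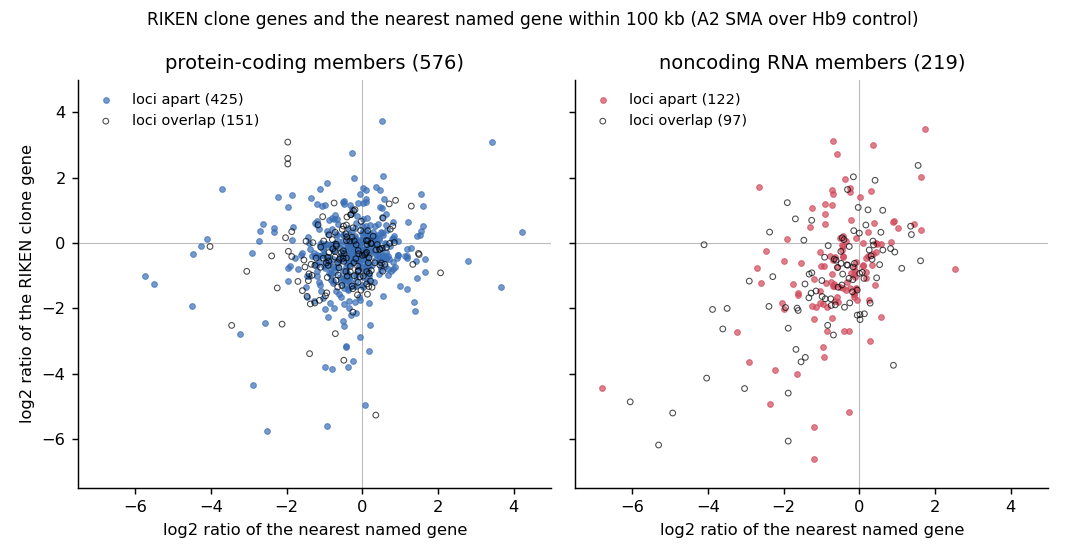
Log2 ratio of each RIKEN clone gene (vertical axis) against that of its neighbour within 100 kb (horizontal axis), for coding members on the left and noncoding members on the right. The neighbour is the nearest gene with an established symbol at 1 FPKM or more in the higher genotype and above 0 in both. Filled points mark loci that lie apart and open points overlapping loci. The noncoding points stretch toward the lower left, where both genes are lower in A2 SMA, with a Pearson correlation of 0.49, beside 0.14 for the coding points.

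Other members differed sharply from the neighbour so defined. Among pairs with both genes at 5 FPKM or more, D930007P13Rik and Smug1 had the largest difference of log2 ratios. 9030425E11Rik (Clmp, an adhesion molecule) read 21.5 FPKM in Hb9 control and 8.48 FPKM in A2 SMA. It lay 15.7 kb from a row at 7.27 and 92.9 FPKM that joins Hspa8, a constitutive heat shock protein, with Snord14c, Snord14d and Snord14e. The share of Hspa8 in that row cannot be told. 5730455P16Rik read 27.5 and 13.6 FPKM, 4.45 kb from Rhbdl3, a rhomboid-like gene of neurons, at 87.4 and 1.64 FPKM. Ccdc182 stood 44.1 kb from Msi2, an RNA-binding protein gene at 121 and 63.1 FPKM. Platr27, higher in A2 SMA, lay 24.3 kb from Nnat, an imprinted neuronal gene at 782 and 124 FPKM with a failed estimate. 8030474K03Rik, with a failed estimate, read 19.8 and 21.4 FPKM, 50.7 kb from Rgag4 at 9.43 and 0.547 FPKM.

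Members whose newer name marks them as an opposite-strand transcript give the closest view of such pairs. For 26 of them the host gene had a row under its own symbol at 1 FPKM or more. Of these 26, 17 (65.4%) were on the same side of 0 as the host. With 21 of the members and 18 of the hosts lower in A2 SMA, 61.8% follows from these margins alone, so the pairs as a set stood close to it. At least 2-fold lower in A2 SMA were 9 members (34.6%) and 7 hosts (26.9%), beside 22.7% of all rows, and in 3 pairs both were. The 3 were Lhx1os, Hoxb5os and Kcnmb4os2 with their hosts. Not among the 26 was 1700066J24Rik (Fam219aos), whose host 2310028H24Rik (Fam219a) is itself a member under a Rik symbol. Both were at least 2-fold lower in A2 SMA, Fam219aos at 16.0 and 2.39 FPKM and Fam219a at 29.8 and 4.28 FPKM. Pairs that parted, named after their values were seen, included 2410137F16Rik (Srrm4os) at 2.03 FPKM in Hb9 control and 1.96 FPKM in A2 SMA while Srrm4, a neuronal splicing factor, had a log2 ratio of -4.10. B230314M03Rik (Lrp8os2) was higher in A2 SMA, at 2.85 and 6.71 FPKM, and Lrp8, a reelin receptor, had a log2 ratio of -1.90. 5930412G12Rik (Fzd10os) was lower, at 10.7 and 2.22 FPKM, and Fzd10, a Wnt receptor, had 0.57. For 17 of the 26 pairs both rows shared 1 locus, and 12 of these 17 (70.6%) had the same direction, beside 60.9% from the margins. At separate loci 5 of the 9 pairs (55.6%) had the same direction, beside 63.0% from the margins.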

How the data were processed

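RNA-seq of sorted, embryonic stem cell-derived motor neurons was analysed from the processed gene table, from 3 samples of each line. By the submitters' processing notes and the study's methods, the authors ran FastQC 0.10.1 on the reads, trimmed with cutadapt, aligned them with TopHat2 2.04 to NCBI m37 with Ensembl annotation, and estimated levels with Cufflinks and Cuffdiff (other versions are not given in the sources used here). The deposited values are FPKM, 1 per genotype over its samples. No per-sample column was in the table. The reads behind a value are unknown, and the libraries do not mark strand. The table also holds the authors' fold changes, test statistics, p-values, q-values and calls, which were not used; its status column served to mark failed estimates.

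Rows were chosen by symbol and by 1 FPKM or more in the higher genotype, and log2 ratios were formed without a pseudocount in Python 3.11.15 with pandas 2.3.3, NumPy 2.4.6, SciPy 1.17.1 and matplotlib 3.10.9. The functions were tested on simulated data. The pooled values, without the spread of the samples behind them, allowed no test between genotypes here. Named were the 12 lowest and 12 highest ratios at 5 FPKM or more, the 6 highest means, the 3 members on either side of the limit, members at 0 FPKM, the most abundant of groups singled out, and the 6 neighbour pairs with the largest difference and the largest shared change at 5 FPKM or more in both. A neighbour pair among these is not reported here. Members, lists and alternatives were chosen with earlier results of these data known. Newer symbols and gene types came from RefSeq for GRCm38.p6, by symbol or by a unique synonym; library tissues came from general knowledge of the clone prefixes. Locus starts, counted from 0 in the table, are given from 1.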

Additional observations from a re-analysis of the deposited data

How the results depend on the processing

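No paired analysis was possible because the table gives 1 value per genotype, and for the same reason no replicate could be left out. The bounds used to call a value unmoved were 0.1 on the log2 scale for medians, 1.5 times for counts and the exact binomial interval for shares. Of 71 alternative values 48 were unmoved. The median of the members stayed below 0 in all 10 alternatives, and was -0.18 when centred on all rows and -0.18 after upper-quartile scaling. With a pseudocount of 1 FPKM, 158 members (17.3%) were at least 2-fold lower in A2 SMA, the same share as the 17.3% of all rows, and 36 (3.94%, beside 6.23%) higher. The excess over all rows at 2-fold was thus gone. By any amount 69.6% of members were still lower, beside 62.3% of all rows, with medians of -0.35 and -0.21. With no filter beyond more than 0 FPKM in both genotypes the counts were 544 (31.4%, beside 24.3% of all rows) and 147 (8.48%, beside 10.4%), with 1202 members lower by any amount; at 5 FPKM or more they were 121 (22.4%, beside 18.8%) and 27 (5.01%, beside 6.21%), with 384 lower by any amount. At 1 FPKM or more in both genotypes they were 134 (18.6%, beside 16.7%) and 37 (5.12%, beside 6.4%). A fold limit of 1.5 gave 389 lower (42.7%, beside 34.4%) and 120 higher (13.2%, beside 16.0%). A limit of 4 gave 89 (9.77%, beside 9.57%) and 20 (2.20%, beside 2.66%). The share on the side of the neighbour was 58.6% when centred. Among alternatives added after the data were seen, members alone at their locus had medians of -0.75 for noncoding, -0.49 for nervous system and -0.61 for chromosome 11 members, and 0.11 for chromosome X members, which turned their direction. At 5 FPKM or more the nervous system median was -0.60 and that of chromosome X -0.40. Where the count of members tested changed, the filter itself set the count; the cause of the other moves was not tested.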
